A study of Mus musculus with 30 samples.

Results

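Bone morphogenetic protein (BMP) ligands, their receptors and the Smad proteins that carry their signal were read from the 26 probe sets whose platform symbol is Bmp2, Bmp4, Bmp7, Bmpr1a, Bmpr1b, Bmpr2, Smad1, Smad5, Smad6 or Smad7. These are 10 of the 18193 genes and 26 of the 45101 probe sets on the array. RNA was measured on 30 Affymetrix Mouse Genome 430 2.0 arrays, of which 22 came from neurospheres and 8 from tissue of E18.5 embryos. Neurospheres are floating cultures of neural progenitors, here from the ganglionic eminences of embryos at E14.5. All neurosphere groups, controls included, lacked Ink4a/Arf, the locus of the p16 and p19 tumour suppressors, and carried EGFRvIII, a mutant EGF receptor, delivered by retrovirus with puromycin selection. They grew in EGF and bFGF and were harvested at varying passages. By Olig1/2 genotype there were 3 wild-type lines (numbered 2, 3 and 20), 3 heterozygous lines (11, 15 and 26) and 6 null lines (12, 13, 14, 16, 21 and 24) without a further virus, called untransduced here. Heterozygous lines 11 and 15 and null lines 12, 13 and 14 were also measured after a second retrovirus that carried GFP or Olig2, with blasticidin selection. Forebrain and spinal cord came from 2 null and 2 heterozygous embryos, whose tissue labels name Olig2 alone while the series design names Olig1/2. The tissue labels state no Ink4a/Arf genotype. The stock was a mix of Swiss and C57BL/6J. The labels do not say whether a line is 1 clone or which embryo it came from, so p-values measure the spread between these cultures and embryos.

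BMP ligands are secreted dimers that bind a complex of type I receptors (Bmpr1a, Bmpr1b) and a type II receptor (Bmpr2). The type I receptor phosphorylates the receptor-regulated Smads, Smad1 and Smad5, which enter the nucleus with Smad4 and act on target genes such as those of the Id family. Smad6 and Smad7 are inhibitory Smads that act as feedback brakes. In the embryonic brain the pathway is known for promoting astrocyte fate and restraining oligodendrocyte fate, for which Olig1 and Olig2, basic helix-loop-helix transcription factors, are required. A transcript level says nothing on how much of a Smad is phosphorylated. In neurospheres and tissue, fewer cells of a type and less RNA per cell cannot be told apart.

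The values are MAS5 signals, the Affymetrix summary of a probe set on a linear scale, and the array units have no absolute meaning. Differences are on the scale of log2(signal + 16), which understates changes of dim probe sets, and were fitted over all genes with limma, given with their SE and called at an adjusted p (Benjamini-Hochberg over all genes tested) under 0.05. A gene was read from its probe set of highest mean signal, and the other probe sets came from a fit over all probe sets. Median signals of the arrays ran from 128.9 to 217.4. The genotype was checked with the Olig1 probe set, which averaged 8068 ± 1018 (SD, n = 6) in null and 24715 ± 3713 (SD, n = 6) in the other untransduced lines. In forebrain it read 1686 to 1889 in null and 1787 to 2187 in heterozygous embryos, which overlap, so it does not tell the forebrain genotypes apart. In spinal cord it read 1878 to 2007 in null and 3901 to 4068 in heterozygous embryos. The Olig2 probe set read 109 to 179 and 269 to 519 in null and heterozygous forebrain, and 23.8 to 58.5 and 335 to 736 in spinal cord. In untransduced neurospheres it read 6177 to 11577 in null and 11500 to 18048 in the other lines, which overlap. Its difference between null and heterozygous lines was -0.68 and was not called (limma adjusted p 0.051). The Olig2 probe set averaged 6720 ± 2918 (SD, n = 3) in null lines labelled Olig2 and 9168 ± 1015 (SD, n = 3) in those labelled GFP. The sources used here do not place these probes on the deletion or on the viral Olig2, so this probe set cannot check the virus labels, and groups are named by label throughout. Markers of neural progenitors summed to 61204 to 82233 over 7 genes on neurosphere arrays and to 28009.5 to 38887 in tissue. Neuron markers summed to 6215 to 10794 over 7 genes in neurospheres and to 59567 to 70419 in tissue. Null GFP line 13 stood apart, with a Gapdh 3' to 5' log2 ratio of 0.43 and an A260/280 ratio of 2.83, against log2 ratios of -0.33 to -0.13 in the 12 untransduced arrays.

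Of the ligands, Bmp2 was near the floor of the array on all 30 arrays. Its signals ran from 1.9 to 50.7 in neurospheres and from 6.2 to 103.4 in tissue, and it was tested in no comparison. Bmp4 lay between 29.8 and 170.5 in neurospheres and passed the filter on low signals only where tissue arrays entered the fit, as did Smad6, which lay between 36.5 and 147.3 in neurospheres. The remaining members, Bmp7, Bmpr1a, Bmpr1b, Bmpr2, Smad1, Smad5 and Smad7, were tested in every comparison. So 7 of 10 members were tested among neurospheres and 9 of 10 where tissue was included. Of the 26 probe sets, 19 passed the filter among the untransduced neurospheres, and 2 of Bmpr1b and 1 each of Bmp2, Bmp4, Bmpr1a, Smad6 and Smad7 did not.

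**Figure D1:**
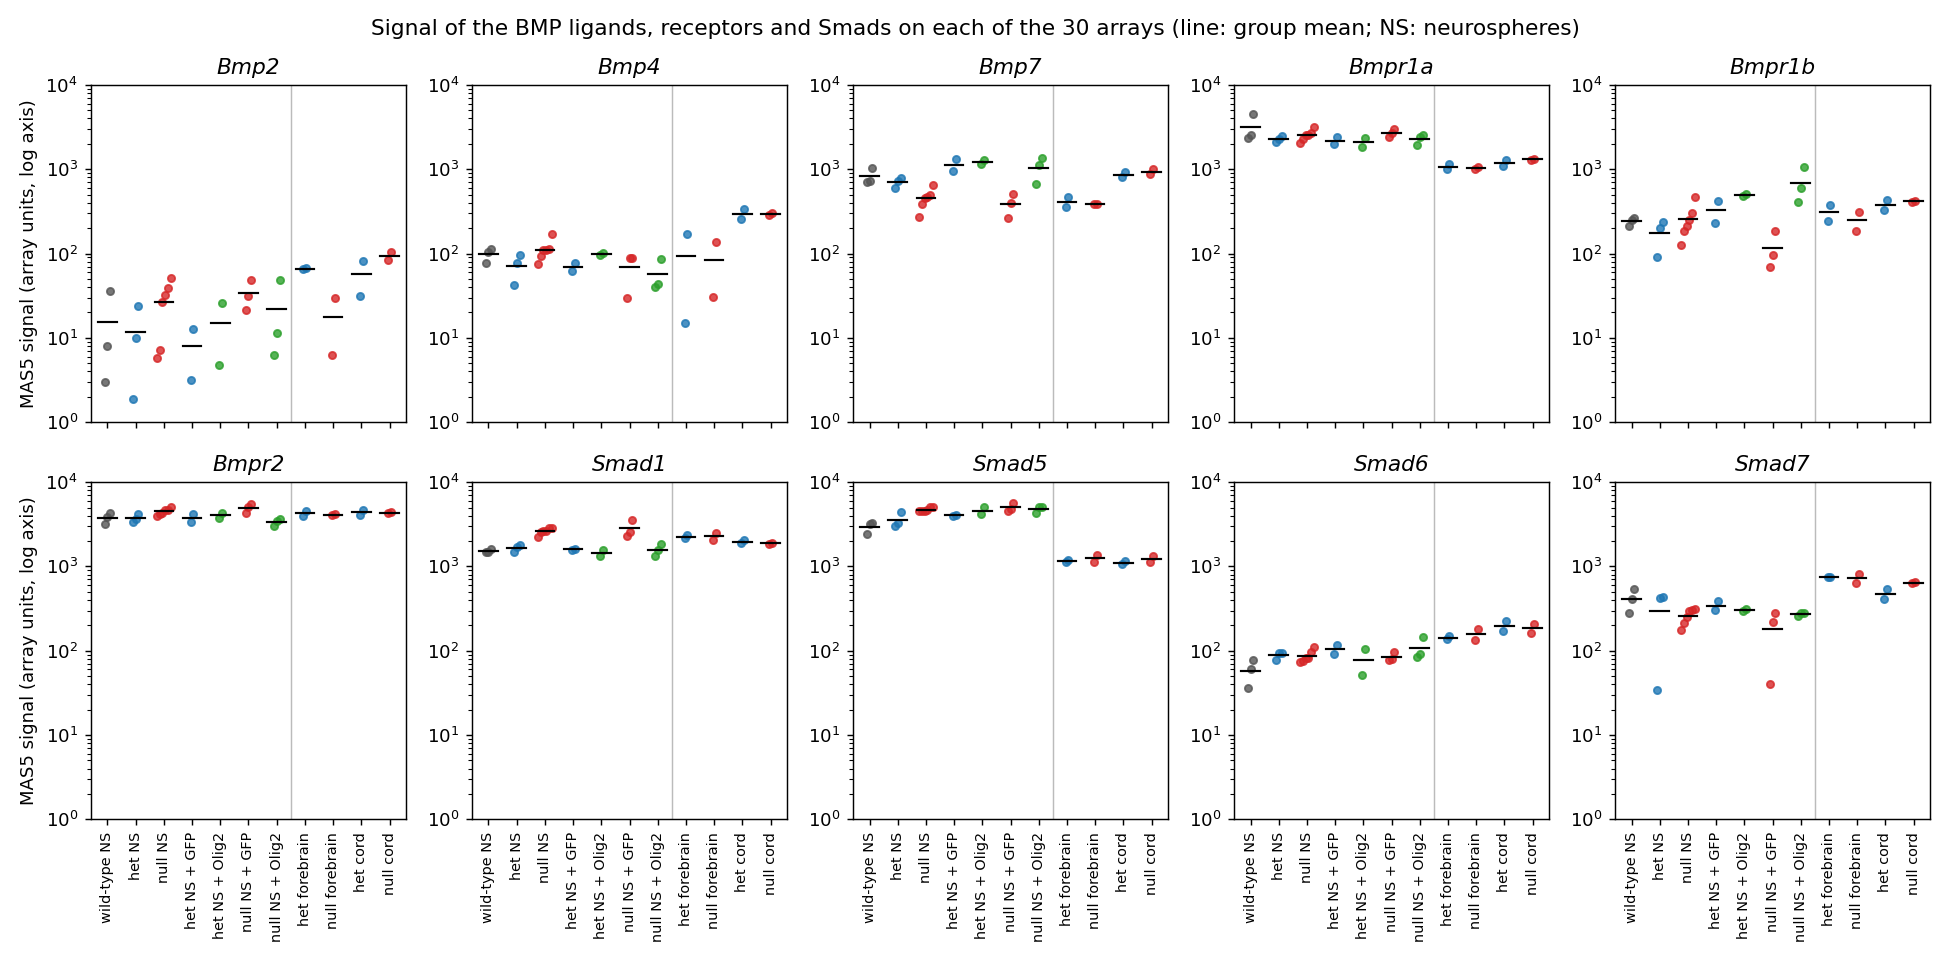
MAS5 signal of each member (logarithmic y axis, array units) on the 30 arrays by group (x axis), with a line at the group mean. Points are single arrays, the grey vertical line parts neurospheres (NS) from tissue, and levels of different genes cannot be compared since each probe set has its own sensitivity. Bmp2 stays at 103.4 or below on every array, and Smad5 lies at 2424 or above in every neurosphere culture and at 1382 or below in tissue.

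Promoter windows are shown for the 4 members that were called in the neurosphere comparisons below and had a window, Smad1, Smad5, Bmpr1b and Bmpr2. RefSeq (GRCm38.p6) gave 11 windows of 250 bases before to 50 bases after a transcript start for 7 of the 10 members. The search covered 4 hexamers, each reading the same on both strands: the E-box pattern CANNTG bound by basic helix-loop-helix proteins, its forms CAGCTG and CATATG, which overlap with it, and GGCGCC, a GC-rich Smad element. CAGCTG was in 2 of the 11 windows, both of Bmpr1b, and in 16.3% of all 32851 windows in the table. GGCGCC was in 4 of the 11 windows (those of Bmpr1a, Bmpr2 and 2 of Smad5) and in 11.9% of all. These 2 Smad5 windows overlap and hold the same GGCGCC and the same CANNTG site, so each site is counted in both. CATATG was in 1 of the 11 (Smad6) and in 3.91% of all, while CANNTG was in 6 of the 11 and 72.3% of all. Smad5 and Bmpr1b had 3 windows each, and for each the printed window is 1 of the 2 that hold a marked hexamer, chosen after the search. Capitals mark CAGCTG in Bmpr1b and GGCGCC in Smad5 and Bmpr2, and the Smad1 window holds none of the 4 patterns. A match describes the letters and not binding. The windows are read 5′ to 3′ on the gene's strand.
Smad1, chr8:79399379-79399678, minus strand: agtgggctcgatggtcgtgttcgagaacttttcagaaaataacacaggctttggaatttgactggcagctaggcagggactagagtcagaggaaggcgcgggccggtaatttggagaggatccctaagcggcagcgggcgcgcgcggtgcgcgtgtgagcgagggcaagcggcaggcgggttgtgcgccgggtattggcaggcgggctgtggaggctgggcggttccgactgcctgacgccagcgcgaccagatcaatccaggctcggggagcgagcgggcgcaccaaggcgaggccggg
Smad5, chr13:56702760-56703059, plus strand: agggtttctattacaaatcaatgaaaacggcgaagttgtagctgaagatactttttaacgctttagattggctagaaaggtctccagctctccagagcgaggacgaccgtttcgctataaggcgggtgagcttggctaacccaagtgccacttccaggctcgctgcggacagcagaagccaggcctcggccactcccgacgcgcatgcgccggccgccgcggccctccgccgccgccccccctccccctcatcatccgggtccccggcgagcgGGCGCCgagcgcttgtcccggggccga
Bmpr1b, chr3:141982215-141982514, minus strand: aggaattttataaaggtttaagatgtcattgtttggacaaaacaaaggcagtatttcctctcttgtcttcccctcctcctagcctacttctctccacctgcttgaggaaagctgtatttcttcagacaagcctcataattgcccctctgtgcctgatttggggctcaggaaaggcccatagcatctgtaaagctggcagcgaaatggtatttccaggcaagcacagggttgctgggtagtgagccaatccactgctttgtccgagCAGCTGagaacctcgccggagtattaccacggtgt
Bmpr2, chr1:59764029-59764328, plus strand: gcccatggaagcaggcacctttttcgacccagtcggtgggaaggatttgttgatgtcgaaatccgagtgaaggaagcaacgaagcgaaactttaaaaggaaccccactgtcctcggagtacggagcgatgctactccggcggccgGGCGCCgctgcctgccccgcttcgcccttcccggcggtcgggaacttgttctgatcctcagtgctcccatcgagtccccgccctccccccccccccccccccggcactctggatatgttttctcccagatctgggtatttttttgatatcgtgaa

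The first comparison asks which of these genes differ when Olig1/2 is absent from these progenitors. In null lines Smad1 and Smad5 rose and Bmp7 fell, while no receptor changed by the test. That is 3 of 7 members called, 2 higher and 1 lower, beside 8.32% of the 12022 genes tested. The median difference of the 7 was 0.23, against -0.02 over all genes.

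Smad1, a receptor-regulated Smad, read 1479, 1596 and 1501 in wild-type lines 2, 3 and 20. In heterozygous lines 11, 15 and 26 it read 1807, 1504 and 1719. In the 6 null lines its signal ran from 2218 to 2838, with a median of 2638, so every null line lay above every other line. The means were 2619 ± 227 (SD, n = 6) and 1601 ± 135 (SD, n = 6), a log2 difference of 0.70 ± 0.08 (SE, limma adjusted p 1.19e-04), or 1.63-fold. All 3 Smad1 probe sets rose, by 0.68, 0.70 and 0.80, in the fit of all probe sets, where 6.61% of the probe sets were called. None of the 3 overlapped between null and Olig-expressing lines, but the share of all probe sets without overlap was not counted. Against each control genotype alone the gene was also higher, by 0.77 ± 0.10 over wild-type (adjusted p 3.70e-04) and by 0.64 ± 0.10 over heterozygous lines (adjusted p 0.0029).

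Smad5 is the partner of Smad1 with a similar role. In null lines its signal ran from 4524 to 5081, with a median of 4618. Wild-type lines gave 3281, 2424 and 3194 and heterozygous lines 3009, 3270.4 and 4410.2, the last being line 26. The groups did not overlap, although line 26 came near the lowest null line. The difference was 0.55 ± 0.10 (adjusted p 0.0035), or 1.47-fold, and 0.68 ± 0.13 against wild-type lines (adjusted p 0.0041). Against heterozygous lines it was 0.43 ± 0.13 and was not called (adjusted p 0.090), but was 0.59 (adjusted p 0.021) without line 26. The other 2 Smad5 probe sets gave 0.29 ± 0.09 (adjusted p 0.078) and 0.08 ± 0.13 (adjusted p 0.78) and overlapped between the groups. The Smad5 call thus comes from 1 of its 3 probe sets.

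Bmp7, the 1 ligand with clear signal in these cultures, was lower in null lines. It read 730.3, 702 and 1045 in wild-type lines 2, 3 and 20 and 795, 718 and 602.5 in heterozygous lines 11, 15 and 26. Null lines ran from 268 to 650.4, with a median of 465.8. Null line 14, at 650.4, overlapped the lowest heterozygous line, and the other 5 null lines lay below all 6 others. The means were 456 ± 126 (SD, n = 6) in null lines and 765 ± 150.5 (SD, n = 6) in the others, a difference of -0.75 ± 0.18 (adjusted p 0.018). The brighter of its other 2 probe sets fell by 1.35 ± 0.27 (adjusted p 0.0073), without overlap. The dimmest gave -1.79 ± 0.44 (adjusted p 0.025), but reached the array median in 0 of 6 null and 4 of 6 other arrays, so it was tested only through the side where it is high. With that probe set, 7 of the 19 member probe sets were called, 4 higher and 3 lower, and 0 of the 7 belong to a receptor.

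Against wild-type lines alone 3 of 7 members were called (2 higher, 1 lower), beside 6.7% of all genes, and Bmp7 fell by 0.86 ± 0.22 (adjusted p 0.031). That Bmp7 call was lost in the fits without null line 24 (-0.82, adjusted p 0.057), wild-type line 2 (-0.93, adjusted p 0.071), wild-type line 3 (-0.96, adjusted p 0.056) or wild-type line 20 (-0.68, adjusted p 0.14), with the arrays of these 2 genotypes alone (adjusted p 0.054) and without a trend in the variance (adjusted p 0.055). Against heterozygous lines 1 of 7 was called, Smad1, beside 3.51% of all genes, and Bmp7 gave -0.65 ± 0.22 (adjusted p 0.15). Between heterozygous and wild-type lines 0 of 7 were called, beside 0.0333% of all genes, where 799 of 12022 genes had an unadjusted limma p under 0.05. The comparisons with wild-type and with heterozygous lines share the null arrays.

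Among receptors, the type II receptor Bmpr2 averaged 4504 ± 427 (SD, n = 6) in null lines. Its mean was 3744.5 ± 559 (SD, n = 3) among wild-type lines and 3749 ± 403 (SD, n = 3) among heterozygous ones. Its difference of 0.27 had a 95% interval of 0.07 to 0.47 and was not called (adjusted p 0.10). Bmpr1a, the broadly expressed type I receptor, gave -0.05 with an interval of -0.37 to 0.27, and wild-type line 20 stood high at 4537.5 beside 2548 and 2362 in lines 2 and 3. Bmpr1b, the type I receptor with more restricted expression, gave 0.23 with an interval of -0.39 to 0.84, and its null lines ranged from 125 to 463.5. For the inhibitory Smad7 the interval ran from -1.06 to 0.80, and heterozygous line 26 read 34.1 where lines 11 and 15 read 420 and 429.8. These intervals leave room for changes in either direction of Bmpr1a, Bmpr1b and Smad7.

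**Figure D2:**
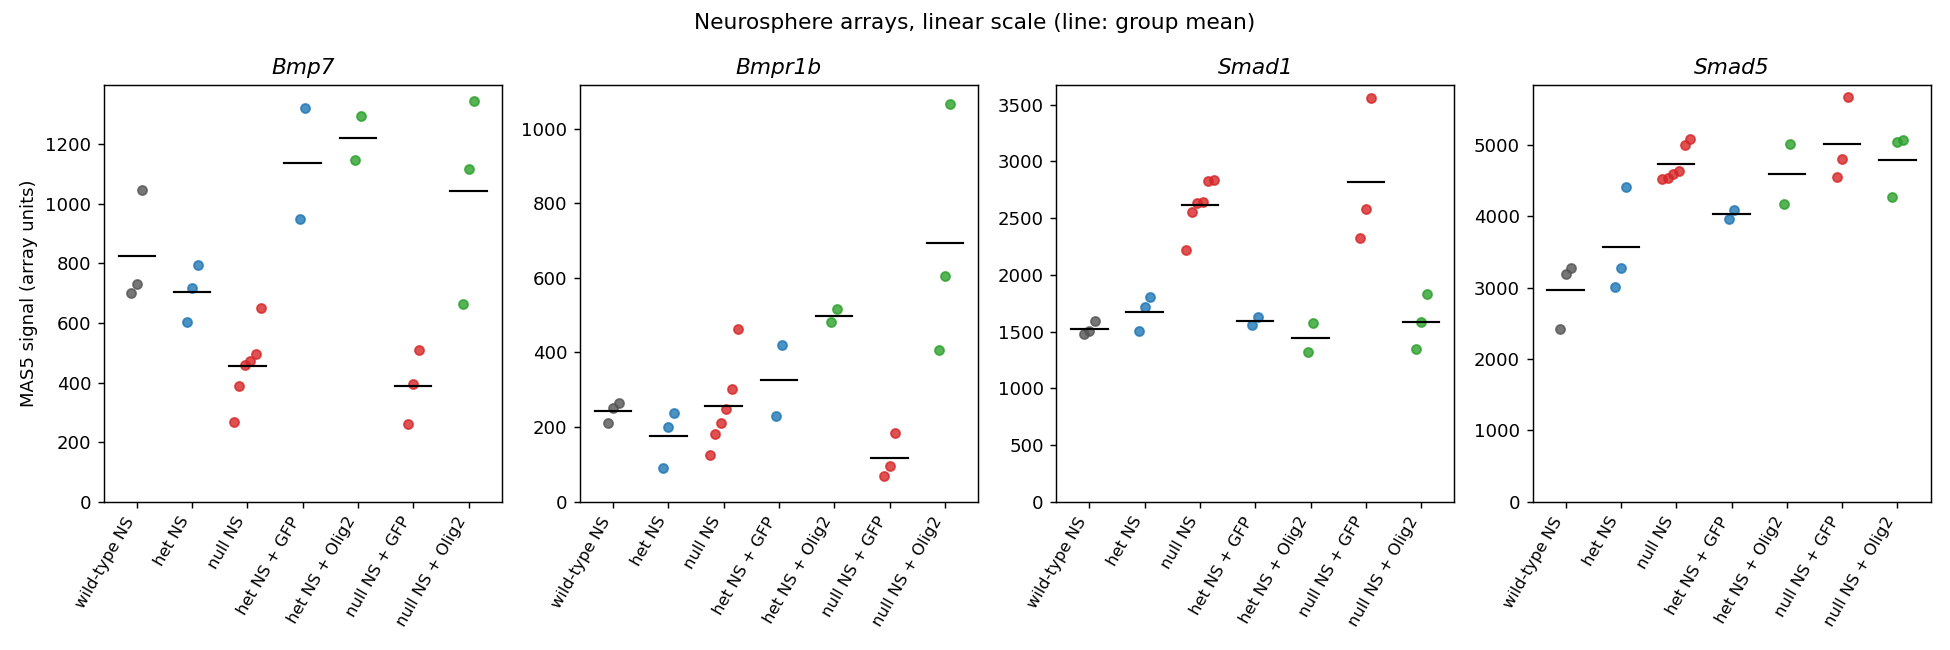
MAS5 signal (y axis, linear, array units, from 0) of Bmp7, Bmpr1b, Smad1 and Smad5 on the 22 neurosphere arrays by genotype and virus (x axis), points being arrays and lines group means. Smad1 is between 2218 and 3562 in null lines without added Olig2 and between 1317 and 1835 in all other neurosphere groups, while Smad5 stays high in null lines labelled Olig2.

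The Olig2 virus arrays ask which of these differences move back when Olig2 is supplied. They share no array with the genotype comparison, though the 3 null lines are the same. In null lines labelled Olig2 against those labelled GFP, Bmpr1b and Bmp7 rose and Smad1 and Bmpr2 fell. That is 4 of 7 members called, 2 in each direction, beside 7.88% of 12458 genes. Of all calls 41.1% were higher, and 22.8% were higher when arrays were scaled to their 75th percentile, which moved the median of all genes from 0.03 to -0.09. The median of the 7 members was -0.06. At this scaling the 4 members kept their calls.

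Bmpr1b had the largest difference of the members. It read 69.9, 183 and 97.0 in null lines 12, 13 and 14 with GFP and 605, 1067 and 406 in the same lines with Olig2. Each line rose, by 2.85, 2.44 and 1.90 on the log2 scale, and the groups did not overlap. The difference was 2.40 ± 0.39 (adjusted p 0.0053), or 5.28-fold. The GFP arrays were lower than the untransduced arrays of the same lines, which read 303, 210.1 and 249. Against those untransduced arrays, a control added after the values were seen, Bmpr1b was 1.298 ± 0.37 higher and not called (adjusted p 0.071). Its other 2 probe sets did not pass the filter. The brighter of them read 62.0, 46.8 and 81.9 with GFP and 156.5, 151.7 and 137 with Olig2, which does not overlap either. Each of these signals lay below the median of its array, so they are given as values only. The dimmer of the 2 is not described.

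Bmp7 in the same 3 lines read 511, 396 and 261 with GFP and 1345, 1116 and 665 with Olig2. The 3 lines rose by a similar amount, 1.37, 1.46 and 1.297, and the difference was 1.37 ± 0.28 (adjusted p 0.016), or 2.59-fold. The level with Olig2, 1042 ± 346 (SD, n = 3), may be set beside 826 ± 191 (SD, n = 3) in untransduced wild-type lines and 1136 ± 264 (SD, n = 2) in heterozygous lines with GFP. All 3 Bmp7 probe sets were called higher, by 2.18 ± 0.40, 2.62 ± 0.48 and 1.37 ± 0.28, in a fit in which 7.65% of all probe sets were called. The second of these reached the array median in 0 of 3 null GFP arrays. The call of the gene was lost without null GFP line 14 (1.12, adjusted p 0.05001), null Olig2 line 12 (1.16, adjusted p 0.072) or null Olig2 line 13 (1.297, adjusted p 0.061), and with untransduced arrays as the control (1.18, adjusted p 0.051).

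Smad1 read 2324, 2577 and 3562 in null lines 12, 13 and 14 with GFP, all above the 1348, 1581 and 1835 of the same lines with Olig2. The fall was 0.81 ± 0.17 (adjusted p 0.0196), and the mean with Olig2, 1588 ± 243 (SD, n = 3), lay near the 1525 ± 62.1 (SD, n = 3) of untransduced wild-type lines. Of its 3 probe sets 2 were called lower, by 0.81 and 1.01, and the third gave -0.77 ± 0.23 (adjusted p 0.065), again without overlap. Its call was lost without null GFP line 14 (-0.63, adjusted p 0.056), null Olig2 line 12 (-0.70, adjusted p 0.082) or null Olig2 line 13 (-0.81, adjusted p 0.062). It was kept against untransduced arrays, at -0.81 ± 0.14 (adjusted p 0.0095), as the only member called there. In that fit 576 genes were called in all, against 982 with GFP arrays as the control.

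Smad5 was not called with Olig2. Its main probe set read 4802, 5676 and 4545 with GFP and 5033, 5063 and 4269 with Olig2 in null lines 12, 13 and 14, and the ranges overlapped. The difference was -0.06, with an interval of -0.34 to 0.21 (adjusted p 0.80), so that a fall as large as the 0.55 seen between genotypes lies outside it. The other 2 Smad5 probe sets gave 0.56 ± 0.16 (adjusted p 0.052) and 0.45 ± 0.17 (adjusted p 0.13).

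Bmpr2 read 4333, 5476 and 5031 with GFP and 3052, 3436 and 3684 with Olig2, lower in 3 of 3 lines. In the fit of all probe sets, where 7.65% were called, 1 of the 3 Bmpr2 probe sets was called lower and the others were not called. By its main probe set Bmpr2 fell by 0.54 ± 0.13 (adjusted p 0.034), or 1.45-fold. This call was lost in 4 leave-one-out fits, without null GFP line 13 (-0.46, adjusted p 0.10), null GFP line 14 (-0.52, adjusted p 0.082), null Olig2 line 12 (-0.47, adjusted p 0.13) or null Olig2 line 13 (-0.55, adjusted p 0.088), under quantile normalisation (-0.40, adjusted p 0.078), with the arrays of the null lines alone (-0.54, adjusted p 0.057) and without a trend (adjusted p 0.089). Bmpr1a gave -0.24 ± 0.16 (adjusted p 0.36). Smad7 gave 0.87 ± 0.49 (adjusted p 0.29), with null GFP line 13 at 40.8 beside 277 and 220.1 in lines 12 and 14, and 0.14 without line 13.

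Null GFP line 13 is the array with the high Gapdh 3' to 5' ratio. Without it Bmpr1b was 2.74 higher (adjusted p 0.0069), Bmp7 1.41 higher (adjusted p 0.041) and Smad1 0.86 lower, at -0.86 (adjusted p 0.040), and 3 members were called. All genes called were then 527, against 982 with that array. The Gapdh ratios of the other GFP null arrays were -0.09 and -0.04, above the -0.25 to -0.20 of the null arrays labelled Olig2. Of 7 astrocyte markers 2 rose with Olig2 (Aqp4 by 2.17 and S100b by 2.25), with summed signals of 7522 to 18696 with GFP and 11278 to 20518 with Olig2. The microglial marker P2ry12 fell by 1.70 and the neural progenitor marker Fabp7 rose by 0.60. The part of RNA quality and of these markers in the result was not tested.

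**Figure D3:**
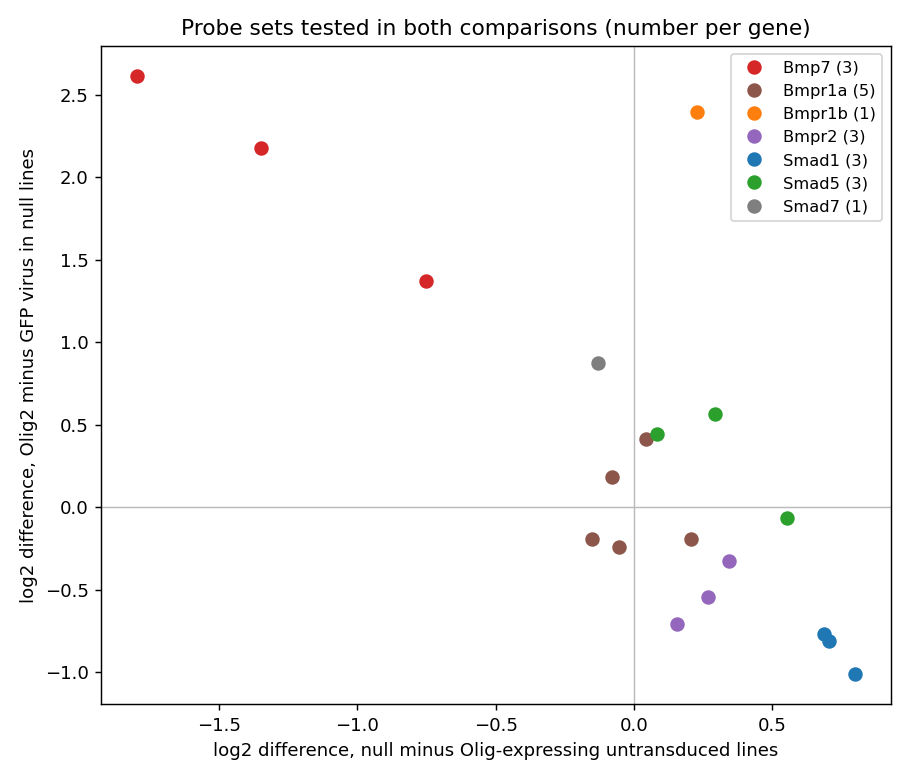
Each of the 19 member probe sets tested in both comparisons, by its log2 difference between untransduced null and Olig-expressing lines (x axis) and between Olig2 and GFP virus in null lines (y axis), coloured by gene. The 3 Bmp7 probe sets lie at upper left (lower in null, higher with Olig2), the 3 Smad1 probe sets at lower right, and the 3 Smad5 probe sets at x values from 0.08 to 0.55 and y values from -0.06 to 0.56.

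In heterozygous lines the virus labelled Olig2 gave 0 calls among the 7 members, beside 0% of 12458 genes, of which 484 had an unadjusted limma p under 0.05. Bmp7 read 949.7 and 1323 in lines 11 and 15 with GFP and 1293 and 1147 with Olig2. Smad1 read 1555 and 1624.5 with GFP and 1574 and 1317 with Olig2. Bmpr1b read 421 and 229 with GFP and 482 and 515 with Olig2, higher in both lines without overlap, but its difference of 0.65 had an interval of -0.38 to 1.69. The differences between the Olig2 effect in null and in heterozygous lines were 1.75 ± 0.61 for Bmpr1b (adjusted p 0.35), 1.26 ± 0.44 for Bmp7 (adjusted p 0.35), -0.64 ± 0.21 for Bmpr2 (adjusted p 0.33) and -0.67 ± 0.28 for Smad1 (adjusted p 0.42). So 0 of 7 members were called for this difference, beside 0.0562% of all genes, with 1335 genes at an unadjusted limma p under 0.05, and an effect restricted to null lines is not shown.

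Null against heterozygous lines with GFP virus repeats the genotype comparison in other arrays of the same lines, with 3 against 2. Bmp7 was called lower, 1 of 7 members beside 1.7% of all genes, with the null lines at 261 to 511 and the heterozygous lines at 949.7 and 1323. The difference was -1.54 ± 0.31 (adjusted p 0.033), and all 3 of its probe sets were called, by -2.18, -2.82 and -1.54, where 1.43% of all probe sets were, though the second was at or above the array median in 0 of 3 null arrays. The call was lost without heterozygous GFP line 11 (-1.77, adjusted p 0.12), heterozygous GFP line 15 (-1.302, adjusted p 0.295), null GFP line 13 (-1.57, adjusted p 0.071) or null GFP line 14 (-1.29, adjusted p 0.085), without either heterozygous Olig2 array (-1.54, adjusted p 0.051 for both), and under quantile normalisation (-1.43, adjusted p 0.059). Smad1 gave 0.80 ± 0.19 without overlap (adjusted p 0.069), and 0.92 (adjusted p 0.046) without null GFP line 12. Smad5 gave 0.31 ± 0.14 (adjusted p 0.34) and Bmpr1b -1.39 ± 0.43 (adjusted p 0.14), with null lines at 69.9 to 183 and heterozygous lines at 229 and 421. This comparison shares its GFP arrays with the Olig2 comparisons.

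GFP virus itself, set against untransduced arrays of the same 5 lines, changed 0 of 7 members, beside 0.0241% of 12427 genes, with 1566 genes at an unadjusted limma p under 0.05. Line by line, Bmp7 moved by 0.89, -0.21 and -1.27 in null lines 12, 13 and 14 and by 0.25 and 0.87 in heterozygous lines 11 and 15. Bmpr1b moved by -1.89, -0.18 and -1.23 in the null lines and by 2.03 and -0.05 in the heterozygous lines. Several of these steps are as large as the differences between groups above.

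**Figure D4:**
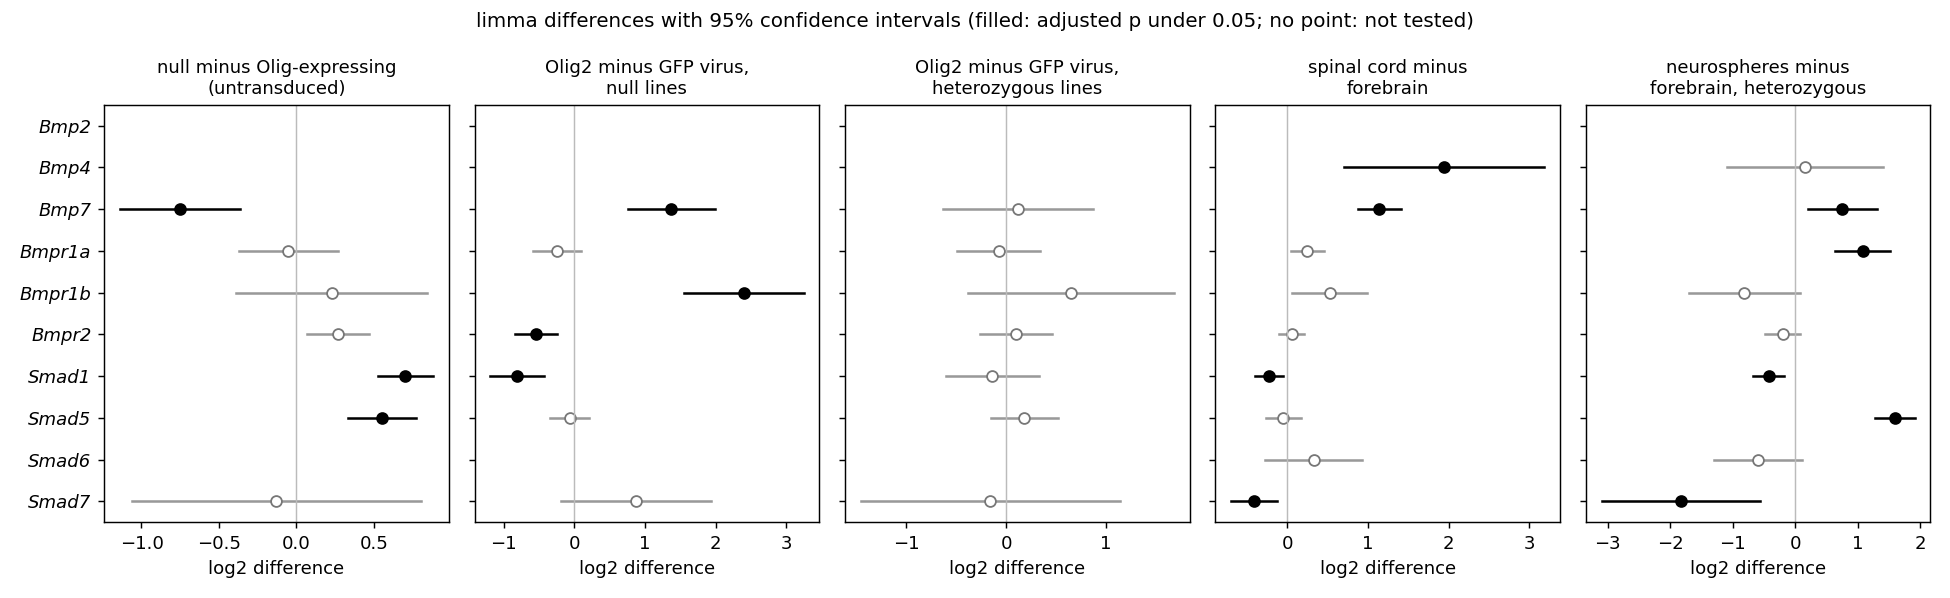
Log2 differences (x axis) with 95% confidence intervals for each member (rows) in 5 comparisons (panels), filled where the limma adjusted p was under 0.05 and empty otherwise. A missing point marks a member not tested. Bmp7 lies at -0.75 between genotypes and at 1.37 with Olig2 in null lines, and no member is filled in heterozygous lines.

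Other BMP pathway genes were taken from 7 lists with 66 genes in all. Between null and Olig-expressing lines 47 were tested, of which 5 rose and 1 fell beside 8.32% of all genes called, and their median was 0.08. Among 7 tested BMP target genes 3 rose and 1 fell. Id4, an inhibitor of basic helix-loop-helix factors, rose by 4.33 ± 0.20 (adjusted p 2.82e-08), the Notch and BMP target Hey1 by 1.61 ± 0.34 (adjusted p 0.0085) and Id2 by 0.70 ± 0.20 (adjusted p 0.042), whereas Id3 fell by 0.57 ± 0.14 (adjusted p 0.0186). The list's members therefore moved in both directions. Of 10 Smad cofactors and turnover genes 2 rose, Nedd4l, a ubiquitin ligase for activated Smads, by 1.12 ± 0.16 (adjusted p 4.45e-04) and the Smad-interacting repressor Zeb2 by 0.68 ± 0.13 (adjusted p 0.0037). No gene was called among 1 further BMP ligand, 8 receptors and co-receptors, 9 antagonists, 3 other Smads or 9 genes of the TGF-beta and activin branch. Smad4, the common partner, read 3424 ± 350.3 (SD, n = 6) in null and 3426 ± 248 (SD, n = 3) in wild-type lines. Over the 3 other Smads tested the median difference was -0.005 against wild-type and -0.21 against heterozygous lines, with 0 called in either. Between null and Olig-expressing lines 3 of 5 oligodendrocyte precursor markers tested fell, Cspg4 by 1.84 and the deleted Olig1 and Olig2 themselves. Summed over the 6 markers, signals were 13721 to 20570.3 in null and 36512 to 50926 in the other lines. Olig1 and Olig2 made up most of these sums, with means of 8068 and 8302 beside a mean sum of 17132 in null lines. In wild-type lines they averaged 26610 and 15498 beside 43837. The gap in the sums is thus mainly that of the deleted genes and says little of the other markers. Of 7 neural progenitor markers Prom1 rose by 2.10 and Sox1 by 1.22. Aldh1l1 rose by 1.57 and Gja1 fell by 1.77 among 7 astrocyte markers, the microglial marker P2ry12 rose by 1.51 and the neuron marker Map2 by 0.35. The part of these markers in the member differences was not tested.

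With Olig2 in null lines 46 pathway genes were tested, 3 rose and 3 fell, with a median of -0.01, beside 7.88% of all genes called. Id4 fell by 2.52 ± 0.32 (adjusted p 0.0020) and Nedd4l fell by 0.85 ± 0.19 (adjusted p 0.022), each against its direction between genotypes. Rgma, a BMP co-receptor, rose by 1.31 ± 0.26 (adjusted p 0.014), Gata2 by 0.75 ± 0.16 (adjusted p 0.019) and Smad3 by 0.50 ± 0.13 (adjusted p 0.041). The TGF-beta receptor gene Tgfbr1 fell by 0.55 ± 0.14 (adjusted p 0.034). None of 9 antagonists tested was called. Hey1, Id2, Id3 and Zeb2 gave 0.73, -0.10, 0.31 and -0.67 and were not called (adjusted p 0.16, 0.83, 0.11 and 0.15).

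Across the 22 neurosphere arrays the genes whose log2 signal was most like a member's, by Pearson's r among 13134 genes, were Plxnd1 (0.95), D430041D05Rik (0.94) and Cdr2 (0.93) for Smad1. For Bmp7 they were Bzw2 (0.90), Hnrnpll (0.89) and Cpne8 (0.89), and for Bmpr1b they were Fgfr3 (0.88), Plekhb1 (0.86) and Limk2 (0.85). Bmpr2 was most like Chml (0.87), Smad5 like Pebp1 (0.83), Smad7 like Taok2 (0.84) and Bmpr1a like Plagl1 (0.76). The arrays share lines and genotypes, so these values describe likeness only.

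No member was called between null and heterozygous tissue. Between null and heterozygous forebrain 0 of 9 members were called, beside 0.0405% of 12342 genes, with 782 genes at an unadjusted limma p under 0.05. In spinal cord it was 0 of 9 beside 0.13%, with 742 such genes, and for the difference of the genotype effect between tissues 0 of 9 beside 0%, with 705 such genes. Smad1 read 2342 and 2168 in heterozygous and 2061 and 2474 in null forebrain, a difference of 0.00 with an interval of -0.25 to 0.25. In spinal cord it read 2044 and 1892 in heterozygous and 1867.5 and 1896 in null embryos. Bmp7 differed by -0.07 with an interval of -0.46 to 0.31 in forebrain, and by 0.11 with an interval of -0.27 to 0.50 in spinal cord. For Smad1 in forebrain the upper end of the interval is below the 0.64 of null against heterozygous neurospheres. Smad7 gave 0.44 ± 0.18 in spinal cord (646 and 633 in null against 538 and 406 in heterozygous embryos), not called with adjusted p 0.77.

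Between tissues Bmp7 was higher in spinal cord and Smad7 and Smad1 lower, and Bmp4 was higher too but entered the test through the spinal cord arrays alone. These are 4 of 9 members called, 2 in each direction, beside 40% of the 12342 genes, a share near that of the members, so the count says nothing particular of them. Bmp4 read 139, 30.4, 173 and 15.2 in forebrain of embryos 1 to 4 and 305, 285.5, 338 and 256 in their spinal cords. It was higher in 4 of 4 embryos, by 0.91 to 3.13, and the groups did not overlap. It reached the array median, which the filter asks for, in 4 of 4 spinal cord and 0 of 4 forebrain arrays, so a gene with its forebrain levels could enter the test only by being higher in cord. Its difference of 1.95 ± 0.56 (adjusted p 0.017) is therefore given as a value and not as support. Its call was lost without heterozygous spinal cord 3 (1.85, adjusted p 0.066), null forebrain 2 (1.51, adjusted p 0.056) or null spinal cord 1 (1.92, adjusted p 0.054).

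Bmp7 read 386, 391.5, 465 and 361 in forebrain and 999, 878, 813 and 919 in spinal cord of embryos 1 to 4, again without overlap. The difference was 1.14 ± 0.12 (adjusted p 2.87e-05), or 2.21-fold, and its call was kept without each tissue array in turn. Its other 2 probe sets were too dim in tissue to be tested. Of the 19 member probe sets tested 5 were called (2 higher, 3 lower), beside 37.7% of all probe sets, and 2 of the 5, of Bmp4 and Smad5, reached the array median in 1 tissue only.

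Smad1 fell by 0.23 ± 0.08 (adjusted p 0.042), from 2261 ± 183 (SD, n = 4) to 1925 ± 80.4 (SD, n = 4), with no overlap. Its other 2 probe sets gave -0.08 and 0.18 with overlap, and the call was lost without any 1 of 7 of the 8 arrays (-0.16 to -0.26, adjusted p 0.053 to 0.16), null forebrain 1 being the exception. Smad7 fell by 0.41 ± 0.13 (adjusted p 0.027) with overlapping groups, as embryo 1 read 635 in forebrain and 646 in cord, and its call was lost without any 1 of 6 arrays (-0.31 to -0.42, adjusted p 0.053 to 0.10). Bmpr1b (0.52 ± 0.21, adjusted p 0.073) and Bmpr1a (0.25 ± 0.09, adjusted p 0.054) were not called. Without heterozygous forebrain 3 or null forebrain 1 Bmpr1b was called (0.67, adjusted p 0.036, and 0.70, adjusted p 0.030), and without heterozygous forebrain 4 or heterozygous spinal cord 3 Bmpr1a was (0.30 in both, adjusted p 0.043 and 0.041). Smad5, Smad6 and Bmpr2 gave -0.05, 0.33 and 0.05.

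**Figure D5:**
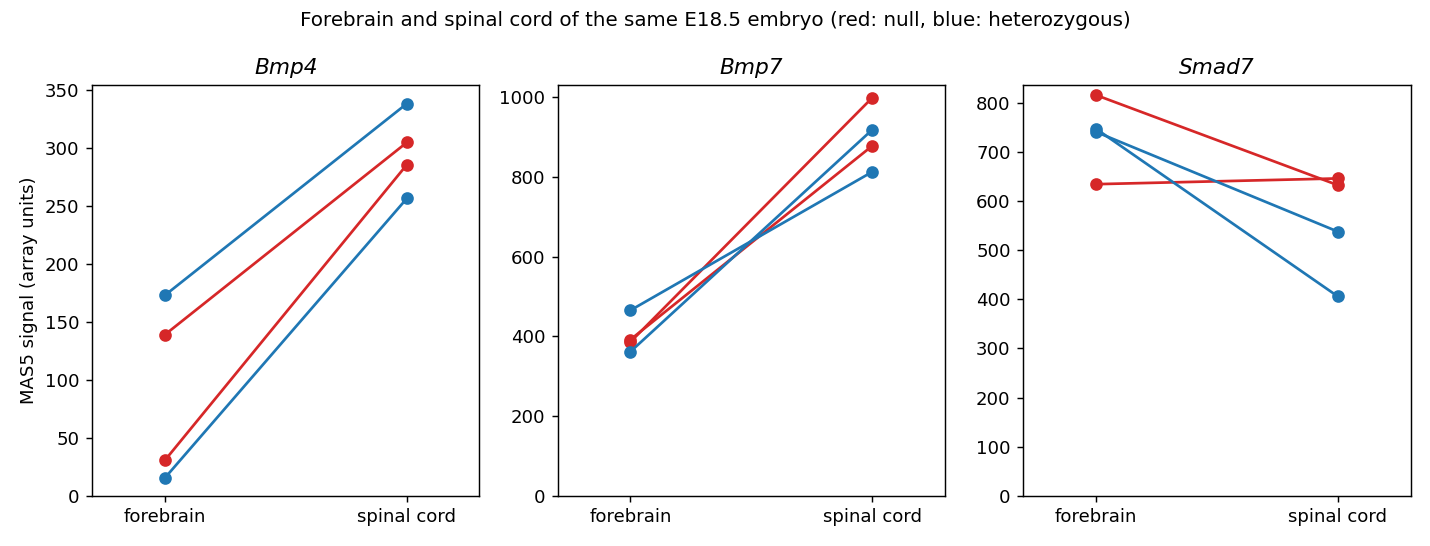
MAS5 signal (y axis, linear, array units, from 0) of Bmp4, Bmp7 and Smad7 in forebrain and spinal cord (x axis), with a line joining the 2 tissues of 1 embryo, null in red and heterozygous in blue. Bmp4 and Bmp7 are higher in the spinal cord of 4 of 4 embryos, and Smad7 is lower in 3 of 4.

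Among the 50 other pathway genes tested between tissues 15 rose and 18 fell in spinal cord, with a median of -0.07, where 40% of all genes were called. Of 10 antagonists and modulators 6 were called higher and 1 lower, such as Fstl1 (1.396 ± 0.11), Bmper (0.97 ± 0.16) and Grem1 (0.86 ± 0.22). Of BMP targets Id3 (1.53 ± 0.14), Id1 (0.99 ± 0.10), Hey1 (1.51 ± 0.20) and Id4 (0.45 ± 0.08) rose, while Id2 fell by 1.198 ± 0.11 and Dlx5, a forebrain patterning gene, gave -3.48 ± 0.33. The antagonist Nbl1 gave 2.43 ± 0.41. Nbl1 and Dlx5, and the antagonist Fst, which was called lower, reached the array median in 0 of 4 arrays of the lower tissue, so their direction was set by the filter. The ligand Bmp6 rose by 1.46 ± 0.22. Of 7 receptors and co-receptors 4 fell and 0 rose, and Smad4 fell by 0.95 ± 0.07. The calls printed here with a value had a limma adjusted p of 0.0095 or below. Fst had 0.038, and Sostdc1 and Bmp1, both among the 6 called higher, had 0.026 and 0.036. Markers of other cells moved too. Meningeal fibroblast markers rose (6 of 7), from summed signals of 2152 to 2776 in forebrain to 16043 to 28407 in cord, and astrocyte markers rose (7 of 7), from 7405.5 to 8717 to between 28239.5 and 33719. Choroid plexus markers fell (3 of 4 tested), from 31097 to 34335 to between 614 and 858. The Gapdh 3' to 5' log2 ratio was 0.04 to 0.37 in spinal cord arrays and -0.22 to -0.07 in forebrain arrays. The part of these markers and of RNA quality in the ligand and target differences was not tested.

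Heterozygous neurospheres against heterozygous forebrain differ in age, region (ganglionic eminences against forebrain), neuron marker signal, culture, EGFRvIII and, as far as stated, Ink4a/Arf. These cannot be told apart. In neurospheres Bmp7, Bmpr1a and Smad5 were higher and Smad1 and Smad7 lower, 5 of 9 members beside 50.9% of 13672 genes. Smad5 read 3009 to 4410.2 in 3 neurosphere lines and 1132 and 1177 in forebrain, a difference of 1.59 ± 0.15 (adjusted p 6.30e-08), and all 3 of its probe sets were called higher. Bmpr1a read 2084 to 2469.5 against 999 and 1153 (1.08 ± 0.21, adjusted p 2.83e-04), with all 5 probe sets tested called. Of 21 member probe sets 11 were higher and 2 lower, beside 45.6% of all probe sets, and 2 of the 13, both of Bmp7, reached the array median in 0 of 2 forebrain arrays. Smad1 fell by 0.43 ± 0.12 (adjusted p 0.0055), with 1 of its 3 probe sets called, and lost its call without heterozygous forebrain 3 (-0.37, adjusted p 0.061). Smad7 fell by 1.83 ± 0.60 (adjusted p 0.016), on a group that holds line 26 at 34.1, and lost its call without forebrain 3 or 4 (-1.84 and -1.83, adjusted p 0.072 and 0.073) and with the arrays of these 2 groups alone (adjusted p 0.11). Bmp7 rose by 0.75 ± 0.26 (adjusted p 0.022) and lost its call without forebrain 4 (0.58, adjusted p 0.18) or neurosphere line 11 (0.66, adjusted p 0.070).

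By group mean, Smad1 was highest in null neurospheres with GFP and without virus (2821 and 2619), then in forebrain (2267 in null and 2255 in heterozygous embryos), then in spinal cord (1968 and 1882), and lowest in the neurospheres that had at least 1 Olig allele or the Olig2 label (1446 to 1677). The ranges of null neurospheres and forebrain overlapped, whereas no array of the last kind reached the lowest spinal cord array, at 1867.5. Bmp7 was highest in heterozygous neurospheres with Olig2 (1220 ± 103, SD, n = 2) and lowest in null forebrain (389 ± 4.17, SD, n = 2) and null neurospheres with GFP (389 ± 125, SD, n = 3), and each group overlapped its neighbour in that order. Smad5 separated neurospheres (group means of 2966 to 5008) from tissue (1109 to 1258) in full.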

How the data were processed

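The deposited values are MAS5 signals per probe set, as linear intensity, per the submitters' processing notes. No version of MAS5 is stated there. On each of the 30 arrays the mean without the lowest and highest 2% was 500, so the values are scaled and the number of arrays limits the precision. Of 45101 probe sets 64 were controls, which were left out, and 34945 others had 1 symbol. Values were log2(signal + 16), and each gene was read from its probe set of highest mean log2 over 30 arrays. In each of 5 array sets (12 untransduced, 10 virus, 10 vector, 8 tissue, 20 untransduced and tissue) a gene was tested when at least as many arrays as the set's smallest group had it at or above their median. All 14 comparisons used R 4.3.3 and limma 3.58.1, with lmFit, contrasts and a two-sided eBayes test with trend, and p-values were Benjamini-Hochberg adjusted over all genes. Figures were drawn with matplotlib. The pipeline was tested on simulated data.

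Lines and embryos pair arrays by label. Over all genes tested, arrays of the same line or embryo correlated in their deviations from group means by -0.10 to 0.13. In groups of 2 arrays the deviations mirror each other, so both units give the same value. A low value over all genes does not show that pairing is of no weight for a single member. The main fits had no block for line or embryo, and the block was an alternative. Other alternatives were pseudocounts of 1 and 64, no filter, quantile or 75th percentile scaling, probe sets without a suffix letter, all probe sets, no trend, the arrays of the 2 sides only, each array left out in turn and, added after the values were seen, untransduced arrays as the control for Olig2. The labels give 1 hybridisation day, so no batch could be compared. The members, pathway lists and marker lists were chosen with earlier results of these data known. The named genes are all 10 members, Olig1, Olig2 and Id4, called pathway genes (up to 4 of smallest p per list, with others named to describe a list) and the 3 nearest patterns per member.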

Additional observations from a re-analysis of the deposited data

How the results depend on the processing

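A member without a call has no direction here, so only a gained or lost call or a turned sign counts as a change. Among refits of single members the call stayed as it was in 2109, was lost in 58 and was gained in 11, and no called value turned its sign. The calls of Smad1, Smad5 and Bmp7 between null and Olig-expressing lines held under all 9 other settings and without each of 12 arrays. Members called in null against heterozygous neurospheres were 1 to 2 without each array in turn. With Olig2 against GFP in null lines 4 members were called, 1 without a trend, 1 with untransduced arrays as the control and 1 to 4 without each array in turn. In null against heterozygous lines with GFP the 1 call became 2 at the 75th percentile scaling, 0 without a trend and 0 with quantile normalisation, and was 0 to 2 without each array in turn. Spinal cord against forebrain gave 4 calls, 2 without a trend and 1 to 5 without each array in turn. Neurospheres against forebrain gave 5, and 3 to 5 without each array in turn. Leaving out 1 of 2 arrays of a group assumes that the remaining array varies like the other groups.

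Without the trend Bmp7 and Smad1 with Olig2 in null lines had adjusted p of 0.054 and 0.058, and Bmpr2 had 0.089. With a block for the line (replicate block) Bmpr1b, Bmp7 and Smad1 with Olig2 in null lines stayed at 2.40, 1.37 and -0.81. That was fixed by the design, since each of these lines has both arrays. Their limma adjusted p with the block were 0.0034, 0.0042 and 0.010, and that of Bmpr2 was 0.023, each below its value without the block. The block changed no member call in the comparisons it was run on. The block moved the genes called for the Olig2 effect between genotypes from 7 to 4 and for GFP against untransduced from 3 to 0. All genes called with Olig2 in null lines were 982, but 567 with the arrays of both sides only, 384 without a trend, 576 with untransduced arrays and 298 to 1171 without each array in turn. Testing all probe sets in place of genes gave 1693 calls against 1000 between null and Olig-expressing lines, 1396 against 806 for wild-type and 687 against 422 for heterozygous controls, 2045 against 982 with Olig2, 381 against 212 with GFP, 9763 against 4939 between tissues and 13771 against 6960 for neurospheres against forebrain. Without each array in turn the lowest counts were 479 against wild-type lines, 245 against heterozygous lines and 41 with GFP (93 without a trend). Counts of 16 or fewer genes moved between 0 and 34 over the settings. Dim signals limit Bmp2, Bmp4 and Smad6 in neurospheres.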
